A study of Mus musculus with 29 samples.

Results

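The genes described here decide whether pyruvate made in the cytosol enters the mitochondrion and becomes acetyl-CoA. They are the pyruvate dehydrogenase kinases Pdk1, Pdk2, Pdk3 and Pdk4, the pyruvate dehydrogenase phosphatases Pdp1 and Pdp2, the E1 subunits Pdha1 and Pdhb of the pyruvate dehydrogenase complex, and the subunits Mpc1 and Mpc2 of the mitochondrial pyruvate carrier. Members were taken by their symbol in the deposited table, where all 10 were found among 24770 gene symbols, and each of them passed the filter on low counts in every comparison. A separate gene that carries Pdk1 as a synonym, Pdpk1, has a row of its own and is not a member.

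As background, Mpc1 and Mpc2 form the carrier that brings pyruvate through the inner mitochondrial membrane. Pyruvate dehydrogenase then turns it into acetyl-CoA, a step that animals cannot reverse. The kinases phosphorylate the E1 alpha subunit, encoded by Pdha1, and switch the complex off, while the phosphatases remove the phosphate and switch it on. In muscle, Pdk4 is known as a gene that rises with fasting and with fatty acid supply, and brown fat can burn both glucose and fatty acids for heat.

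The RNA-seq data came from wild-type male C57BL/6J mice in 4 groups: control mice fed chow, mice under calorie restriction (CR), mice trained by treadmill running (EX) and mice given both (CREX). Brown adipose tissue (BAT) was taken from 3 control, 4 CR, 4 EX and 4 CREX mice, and gastrocnemius muscle (SkM) from 4 control, 3 CR, 4 EX and 3 CREX mice, which gives 29 libraries. Per the paper's methods, the mice were killed a day after the last bout of running and had been fasted beforehand, so all groups share a fast. The CR against control and CREX against EX comparisons ask what restriction does in sedentary and in trained mice, and EX against control and CREX against CR ask what training does at either diet.

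The genes lie on 9 chromosomes of the mouse build GRCm38, which is mm10. In the GENCODE M21 annotation, Pdk1 spans chr2:71873224-71903858 on the plus strand, Pdk2 chr11:95026258-95041354 on the minus strand, Pdk3 chrX:93764607-93832201 on the minus strand and Pdk4 chr6:5483351-5496309 on the minus strand. The phosphatase genes are Pdp1 at chr4:11958184-11966452 on the minus strand and Pdp2 at chr8:104591451-104599026 on the plus strand. Pdha1 lies at chrX:160122209-160138413 and Pdhb at chr14:8165996-8173025, both on the minus strand, and the carrier genes are Mpc1 at chr17:8282904-8297661 and Mpc2 at chr1:165460637-165481214, both on the plus strand.

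RefSeq's promoter table for GRCm38.p6 held an entry for 9 of the 10 genes. The windows of 4 genes are printed because these genes moved with restriction or with tissue while their family members moved otherwise, so a reader can compare what lies in front of each. Each window is the stretch from 250 to 51 bases before the RefSeq start, 200 bases long, read 5′ to 3′ on the gene's strand, and none of the 4 overlaps an annotated GENCODE transcript of its gene. Capitals mark matches on either strand to CACGTG, the core of an E-box, to the CCAAT box or to the GC box GGGCGG, and a match on the other strand appears as the reverse complement.
Pdk1, chr2:71872974-71873173, plus strand: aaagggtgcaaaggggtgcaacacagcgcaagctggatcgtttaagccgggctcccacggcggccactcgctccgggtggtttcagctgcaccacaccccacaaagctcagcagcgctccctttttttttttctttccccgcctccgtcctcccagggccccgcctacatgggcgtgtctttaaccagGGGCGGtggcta
Pdk2, chr11:95041422-95041621, minus strand: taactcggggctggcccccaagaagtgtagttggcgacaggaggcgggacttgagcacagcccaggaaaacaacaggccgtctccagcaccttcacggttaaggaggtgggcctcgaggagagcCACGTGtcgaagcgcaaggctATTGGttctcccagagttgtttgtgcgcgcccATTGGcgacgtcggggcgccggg
Pdk4, chr6:5496329-5496528, minus strand: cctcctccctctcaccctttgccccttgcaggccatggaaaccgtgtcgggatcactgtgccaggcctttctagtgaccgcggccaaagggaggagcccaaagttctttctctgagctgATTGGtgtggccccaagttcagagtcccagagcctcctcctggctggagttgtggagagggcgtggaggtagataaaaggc
Pdp2, chr8:104591222-104591421, plus strand: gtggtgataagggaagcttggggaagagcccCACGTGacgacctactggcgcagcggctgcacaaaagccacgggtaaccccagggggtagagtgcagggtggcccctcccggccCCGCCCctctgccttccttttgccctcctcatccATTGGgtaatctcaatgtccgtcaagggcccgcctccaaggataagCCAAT

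The Pdk2 and Pdp2 windows each hold CACGTG, which 4.34% of the 32851 promoter windows of this length in the table hold, and it begins 126 bases before the start in Pdk2 and 219 bases before it in Pdp2. CCAAT occurs 2 times in each of these windows, once in the Pdk4 window and not in the Pdk1 window, against 28.4% of all windows with at least 1 match. GGGCGG occurs once in the Pdk1 and Pdp2 windows and in 24.6% of all windows. AGGTCA (11.4% of all windows), TGTTTAC (2.58%) and TATAAA (9.14%), searched in the same way, are in none of the 4. These matches describe letters in a short window and say nothing of which factor binds there.

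Libraries held 21047242 to 24919377 counts (BAT) and 23050918 to 23425284 counts (SkM), and 3 counts stand at 0.120 to 0.143 CPM, which are counts scaled to library size. Brown fat markers were present in all BAT libraries, with Ucp1, the uncoupling protein of brown fat, at 1367 to 4743 CPM. Skeletal muscle RNA in BAT varied between libraries: the mean log2(CPM + 1) of 10 muscle fibre markers ran from 0.377 to 8.58, and only EX2, EX3 and CREX3 were above 8. In SkM the same muscle score was 12.9 to 13.1 in freely fed mice and 13.3 to 13.6 in restricted mice, while the score of 7 slow fibre markers ran from 1.94 to 8.04 and was lowest in CREX3, CREX2 and EX1. Hepatocyte markers, which the tissue should lack, were detected in SkM of the 3 CR mice (scores 2.44, 4.84 and 4.76) and of CREX1 (2.65) and were at 0.980 or below in all other SkM libraries. In BAT they were detected in CR3 (2.89), EX2 (3.12) and CREX4 (2.23) and were at 0.976 or below in all other libraries. In bulk tissue, fewer cells of a type and less RNA per cell cannot be told apart.

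In control mice the genes differed widely in level, given here as CPM per kilobase of the longest coding transcript so that genes can be compared. In BAT, Mpc1 stood highest at 823 ± 56 (SD, n = 3), followed by Pdha1 (467 ± 19), Pdhb (451 ± 20), Pdk4 (411 ± 54), Mpc2 (299 ± 29) and Pdk2 (131 ± 6.4). Pdk1 (15.7 ± 2.1), Pdp2 (12.4 ± 1.5), Pdp1 (0.995 ± 0.12) and Pdk3 (0.321 ± 0.050) followed far below. The libraries of Pdha1 and Pdhb overlapped, as did those of Pdhb and Pdk4, and the other neighbours in this order did not overlap. In SkM, Mpc1 was again highest at 341 ± 58 (SD, n = 4), ahead of Pdk2 (262 ± 6.6), Pdk4 (202 ± 30), Pdha1 (178 ± 16), Pdhb (143 ± 12) and Mpc2 (134 ± 26). There Pdp1 (11.5 ± 0.84) stood above Pdk1 (8.01 ± 1.0), Pdp2 (1.60 ± 0.20) and Pdk3 (0.272 ± 0.079), and only Pdk4 and Pdha1, and Pdhb and Mpc2, overlapped with their neighbour.

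The kinase genes split differently in the 2 tissues. In control BAT, Pdk4 made up 73.5% ± 2.9 (SD, n = 3) of the summed Pdk1 to Pdk4 level per kilobase, Pdk2 23.6% ± 2.8 and Pdk1 2.82% ± 0.21. In control SkM, Pdk2 was the largest at 55.7% ± 3.7 (SD, n = 4) and Pdk4 made up 42.6% ± 3.7. Pdk3 was near the bottom of what these libraries can show, at 0.282 to 1.27 CPM in all 29 libraries and at most 0.142% of the kinase level in any BAT library. The annotated length used moves the smallest shares most: with the mean over all annotated transcripts, Pdk1 made up 3.44% in control BAT. The Pdk4 share was lower in BAT of restricted mice, at 64.2% ± 1.9 (SD, n = 4) in CR and 62.3% ± 4.4 (n = 4) in CREX mice, and the CR libraries (62.2% to 66.2%) did not overlap with the control libraries (70.2% to 75.5%). It was also below all controls in freely fed EX mice, at 66.9% ± 2.7 (63.8% to 70.1%, n = 4), which overlapped with both restricted groups. Pdk2 took 31.1% ± 1.6 and Pdk1 4.62% ± 0.35 of the kinase level in CR mice. These shares were not tested, since each is a ratio of genes tested below.

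**Figure D1:**
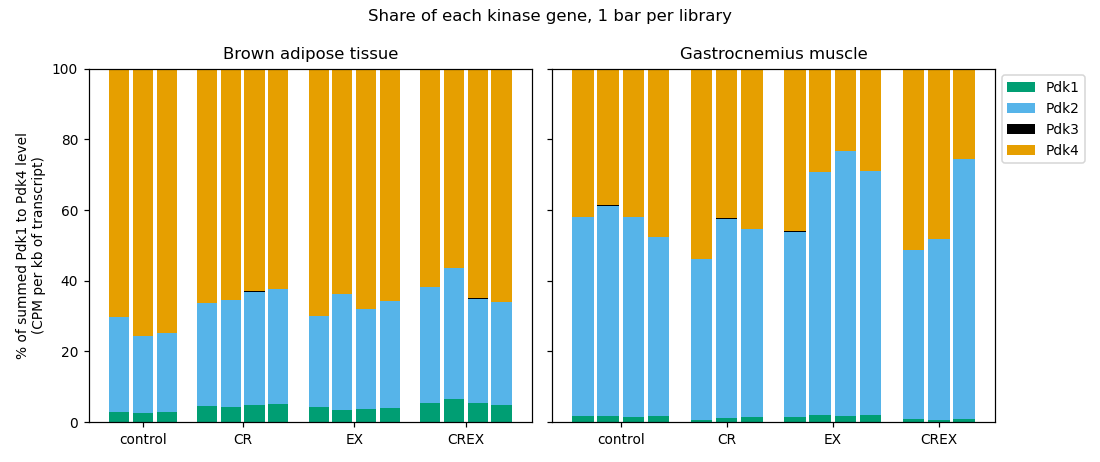
Share of Pdk1, Pdk2, Pdk3 and Pdk4 in their summed level (CPM per kilobase of the longest coding transcript, in %), 1 stacked bar per library, grouped by treatment. Pdk4 holds 56.3% to 75.5% in BAT, and Pdk2 holds 45.6% to 74.9% in SkM.

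The phosphatase genes had the largest log2 fold changes of the 10 genes between control SkM and control BAT. Control BAT held Pdp1 at 3.70 to 4.73 CPM and control SkM at 43.8 to 52.5 CPM, 13.9-fold higher in muscle (log2 fold change 3.80 ± 0.12 SE, adjusted p = 9.2e-11, edgeR with Benjamini-Hochberg adjustment over all genes tested). Pdp2 went the other way, with 7.92 to 10.7 CPM in SkM against 62.2 to 79.1 CPM in BAT (-2.68 ± 0.12, adjusted p = 1.7e-09). No library of one tissue overlapped with the other for either gene. The share of all genes without overlap was not counted for this contrast, so this does not set the 2 genes apart. Of all 10 genes, 2 were higher in SkM (Pdp1, and Pdk2 by 1.28 ± 0.10 on the log2 scale) and 7 were higher in BAT, from Pdk1 (-0.70 ± 0.12) to Pdp2. Among all genes tested, 37.7% were higher and 37.2% lower in SkM, 74.9% in either direction, and 60% passed both thresholds used below. Most genes differ in this contrast, and 10 genes are too few to set 9 past the test apart from that 74.9%. Pdk3 alone did not pass, at 0.569 to 0.781 CPM (control BAT) and 0.409 to 0.741 CPM (control SkM) (adjusted p = 0.95).

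Calorie restriction of sedentary mice raised 5 of the 10 genes in BAT (adjusted p under 0.05, which 9.99% of all genes passed upwards and 10.9% downwards). They were the kinases Pdk1 and Pdk2, both E1 subunits and the carrier subunit Mpc1, and none of the 10 fell. The median log2 fold change over the 10 genes was 0.28, against 0.0045 over all genes tested. In the CR libraries these 5 genes were each above every control library, in a comparison where 33% of all genes had groups that did not overlap.

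Pdk1, a kinase also known as a target of the hypoxia response, was at 75.1, 75.5 and 94.3 CPM in the control mice and at 129.4, 111.8, 129.6 and 125.0 CPM in the CR mice. All 4 CR libraries lay above the highest control. Its 1.52-fold rise (log2 0.60 ± 0.10 SE, adjusted p = 0.0023) made it the 1 DEG of the set, a DEG being a gene that also changed more than 1.5-fold, as 10.7% of all genes did. That fold stands close to the limit, and leaving out control 1, control 2, CR1 or CR3 put it below 1.5-fold. The adjusted p was 0.016 or less in all 7 fits that left out 1 library.

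Pdk2, the most widely expressed kinase of the family, rose less, from 301.2, 277 and 302 CPM in the control mice to 364, 349, 383 and 349.9 CPM in the CR mice. Again the groups did not overlap (0.30 ± 0.07, adjusted p = 0.0098), although without control 2 the adjusted p was 0.057. Pdk4 was the kinase that did not follow: it was at 1221, 1483 and 1586 CPM in the control mice and at 1279, 1162, 1164 and 1036 CPM in the CR mice. Here CR1 lay above the lowest control library, and the difference of -0.30 ± 0.10 missed the threshold (adjusted p = 0.053). It passed without control 1 (-0.41, adjusted p = 0.017) and in DESeq2 (adjusted p = 0.036). Pdk3 had an adjusted p of 0.53.

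Neither phosphatase gene passed the test in BAT of CR mice. Pdp1 was at 3.98 to 5.01 CPM in CR and 3.70 to 4.73 CPM in control mice (0.08 ± 0.15, adjusted p = 0.73). Pdp2 was at 62.2, 79.1 and 70.2 CPM in control and at 51.2, 46.9, 76.4 and 52.4 CPM in CR mice (-0.31 ± 0.17, adjusted p = 0.24). CR3 was the library that overlapped with the controls, and without it Pdp2 passed (-0.49, adjusted p = 0.0040).

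The E1 genes rose together in CR mice. Pdha1, which encodes the subunit the kinases act on, went from 1336, 1274 and 1380 CPM in the control mice to 1683, 1570, 1616 and 1624 CPM (0.29 ± 0.06, adjusted p = 0.0081). Pdhb, its partner, went from 669.7, 660.1 and 716 CPM to 858, 951, 948 and 858 CPM (0.41 ± 0.07, adjusted p = 0.0029). Both sets of libraries were apart, though without control 2 the adjusted p of Pdha1 was 0.0503, and in 1 fit on all 4 groups that of Pdhb was 0.089.

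Of the carrier genes only Mpc1 rose. It was at 734, 798 and 842 CPM in the control mice and at 988, 1254, 1035 and 1058 CPM in the CR mice (0.46 ± 0.09, adjusted p = 0.0062). Mpc2, which is needed with Mpc1 for a working carrier, was at 282 to 340.3 CPM in control and 294 to 325 CPM in CR mice, with overlapping libraries and a difference of 0.02 ± 0.08 (adjusted p = 0.91). The difference between these 2 genes was not itself tested.

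Other cell types also moved in BAT of CR mice. Of 5 macrophage, 4 fibroblast and 4 endothelial markers 3, 3 and 2 fell, and none rose. The fibroblast score was 4.39 to 4.68 in CR and 5.26 to 5.63 in control mice, and the endothelial score 5.56 to 5.88 and 5.95 to 6.16. Of the 8 brown adipocyte markers 1 fell, Ucp1 being at 1851 to 2575 CPM in CR and 3849 to 4743 CPM in control mice. None of the 10 muscle fibre or 7 slow fibre markers passed, with muscle scores of 1.28 to 6.59 in CR and 0.377 to 5.56 in control mice. No marker of these lists was at 0 in a whole group. The part of these cell types in the rise of the 5 genes was not tested beyond a fit with the muscle score as a covariate. In that fit the 5 genes still passed.

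**Figure D2:**
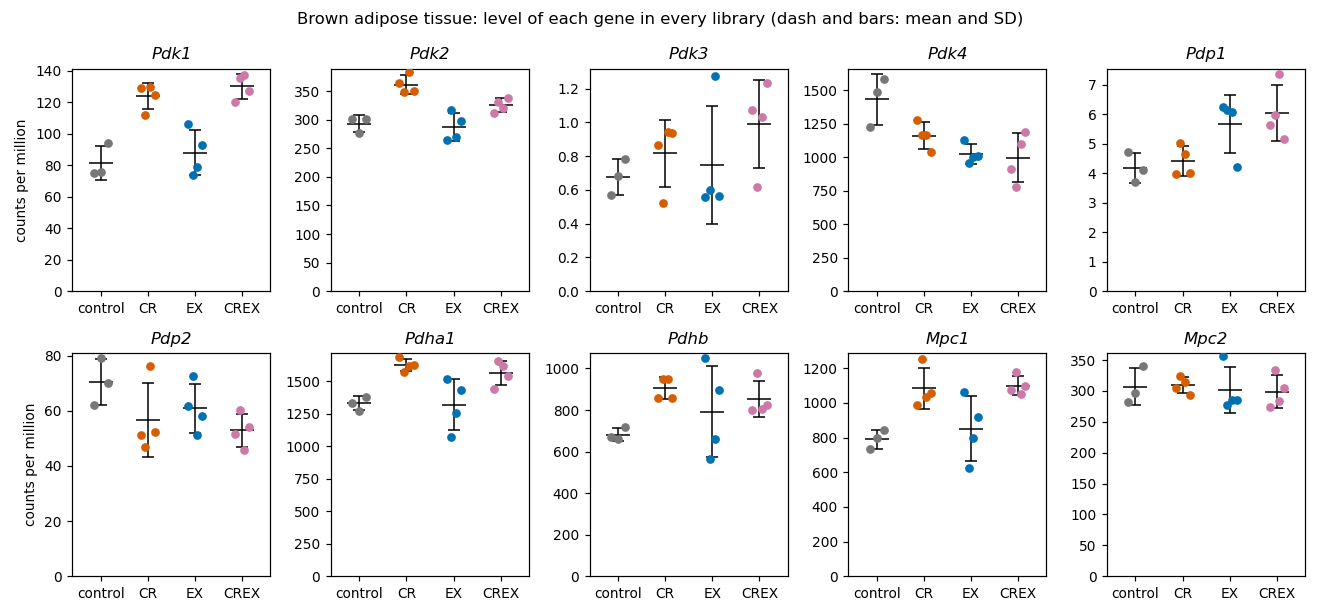
Level of each of the 10 genes in the 15 BAT libraries (CPM on a linear axis from 0), with the mean and SD of each group. For Pdk1 the 8 restricted libraries (111.8 to 137.6 CPM) sit above the 7 freely fed ones (74.0 to 106.0 CPM).

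In trained mice the same contrast, CREX against EX, passed for 1 gene of the 10 in BAT. This count is near the 8.01% of all genes that passed in either direction. Pdk1 was at 106.0, 74.0, 79.1 and 92.7 CPM in EX and at 120.3, 135.5, 137.6 and 127.2 CPM in CREX mice, again without overlap, as for 17.7% of all genes (0.57 ± 0.11, adjusted p = 0.015). Its fold of 1.48 left it just under the DEG threshold, so no member was a DEG, against 4.48% of all genes (3.71% of all genes passed upwards and 4.3% downwards with no fold limit). Pdk2 (0.18 ± 0.07), Pdha1 (0.24 ± 0.11) and Mpc1 (0.37 ± 0.14) had adjusted p of 0.16, 0.19 and 0.14. EX1, the highest EX library for Pdha1 (1519 CPM), Pdhb (1048 CPM) and Mpc1 (1065 CPM), overlapped with the CREX libraries, and without it Mpc1 passed (0.51, adjusted p = 0.048).

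Muscle RNA differed within these 2 groups, with muscle scores of 6.32, 8.08, 8.09 and 0.654 in EX and 6.16, 6.34, 8.58 and 7.18 in CREX mice, and none of the 10 muscle fibre markers passed the test between them. Without the 3 libraries above 8, Pdk1 still stood higher but missed the threshold (0.36, adjusted p = 0.095), with 2 EX and 3 CREX libraries left. With the muscle score as a covariate it passed (0.60, and it was then a DEG). The muscle RNA's part in the Pdk1 difference was not tested beyond these fits.

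Over both activity levels, Pdk1 separated the diets in BAT completely: all 8 restricted libraries were above all 7 freely fed ones, which 8.48% of the genes tested also did in either direction, and no other member did so. In 1 edgeR fit of restriction and training on all 15 libraries, 4 of 10 genes rose with restriction, namely Pdk1 (0.58 ± 0.08, adjusted p = 3.4e-05), Pdk2 (0.24 ± 0.05, adjusted p = 0.0017), Pdha1 (0.26 ± 0.06, adjusted p = 0.0042) and Mpc1 (0.41 ± 0.09, adjusted p = 0.0027). In that fit 15.8% of all genes rose, 17.5% fell and 11.6% were DEGs, and no member was a DEG, with Pdk1 at 1.498-fold. Pdhb (0.24 ± 0.11, adjusted p = 0.11), Pdp2 (-0.25 ± 0.10, adjusted p = 0.075) and Pdk4 (-0.16 ± 0.09, adjusted p = 0.17) did not pass. The 4 genes also passed without the 3 muscle-rich libraries. In the pooled fit 5 of the 8 brown adipocyte markers fell and 1 rose. All 5 macrophage, all 4 fibroblast and 2 of 4 endothelial markers fell. The part of these cell types in the rise of the 4 genes was not tested.

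In SkM of sedentary mice restriction changed 1 of the 10 genes, the phosphatase gene Pdp2 (6.29% of all genes rose and 7.67% fell, and 9.6% were DEGs). This count is near the 14% of all genes that passed in either direction. Pdp2 was at 7.92, 10.7, 9.23 and 8.69 CPM in the control mice and at 4.71, 4.78 and 6.76 CPM in the CR mice. The libraries did not overlap and the gene was 0.599 of its control level (-0.74 ± 0.16, adjusted p = 0.014), although without CR2 the adjusted p was 0.058. The median log2 fold change over the 10 genes was -0.23, against 0.0050 over all genes.

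The most abundant kinases stood higher in SkM of CR mice without passing. Pdk2 was at 577, 610.4, 586 and 582 CPM in the control mice and at 745, 737 and 659 CPM in the CR mice (0.29 ± 0.11, adjusted p = 0.11). Pdk4 was at 667, 617, 674 and 852 CPM in the control mice and at 1363, 858 and 870.3 CPM in the CR mice (0.56 ± 0.19, adjusted p = 0.074). For both genes every CR library was above every control library (27.3% of all genes did not overlap here), and in DESeq2 both passed (adjusted p of 0.0090 and 0.025). CR1 held the highest Pdk4 of all SkM libraries, and without it the difference was 0.30. Pdk1 pointed down, with 40.4, 42.5, 35.2 and 48.0 CPM in control and 25.8, 33.3 and 39.1 CPM in CR mice (-0.33 ± 0.15, adjusted p = 0.18).

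The remaining genes did not pass in SkM of CR mice. Pdha1 (-0.26 ± 0.13, adjusted p = 0.22), Pdhb (-0.24 ± 0.11, adjusted p = 0.18), Mpc1 (-0.13 ± 0.17, adjusted p = 0.66) and Mpc2 (-0.22 ± 0.17, adjusted p = 0.42) all had values below 0. Pdhb was tight in the CR mice, at 180.5, 185 and 182 CPM, below the control libraries at 234, 227, 212 and 192 CPM. Pdp1 depended on 1 mouse: it was at 47.9, 52.5, 48.2 and 43.8 CPM in control and at 24.9, 65.2 and 64.3 CPM in CR mice, and without CR1 it passed as higher (0.43, adjusted p = 0.013), against 0.11 ± 0.27 (adjusted p = 0.83) with all libraries.

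CREX against EX in SkM gave 1 DEG, the carrier gene Mpc2 (6.62% of all genes rose, 6.96% fell and 8.87% were DEGs). Mpc2 was at 158, 147, 147 and 158 CPM in the EX mice and at 111, 79.1 and 96.0 CPM in the CREX mice. The 2 groups were well apart, and the level in CREX was 0.622 of that in EX (-0.69 ± 0.13, adjusted p = 0.014). Groups did not overlap for 27.1% of all genes in this comparison. Mpc1 also had all CREX libraries (265, 249.6 and 311 CPM) below all EX libraries (370.3, 335, 339 and 368 CPM), with an adjusted p of 0.057 (-0.37 ± 0.11).

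Close to the threshold in the same comparison stood Pdp2, with 7.73, 7.72, 6.85 and 5.35 CPM in EX and 5.346, 2.44 and 2.75 CPM in CREX mice (-0.98 ± 0.28, adjusted p = 0.051). Pdk1 (-0.57 ± 0.18, adjusted p = 0.066), Pdhb (-0.43 ± 0.15, adjusted p = 0.074) and Pdha1 (-0.49 ± 0.17, adjusted p = 0.087) were also lower in CREX mice. The library CREX1 was nearer to the EX mice than CREX2 and CREX3 for these 4 genes. Without it, 6 of the 10 genes passed, Pdk1 (-0.82, adjusted p = 0.00071), Pdp2 (-1.44, adjusted p = 0.00044), Pdha1 (-0.71), Pdhb (-0.61), Mpc1 and Mpc2. That fit leaves CREX2 and CREX3, which had the lowest slow fibre scores of the SkM libraries (3.33 and 1.94). Pdk2 was higher in all 3 CREX libraries (786, 768 and 707 CPM) than in all 4 EX libraries (599, 634, 631 and 614 CPM) with an adjusted p of 0.10 (0.28 ± 0.10). The choice of test mattered here: DESeq2 passed 7 of the 10 genes in this comparison against 1 in edgeR, with adjusted p of 0.029 for Pdk1, 0.015 for Pdk2, 0.010 for Pdp2, 0.042 for Pdha1, 0.035 for Pdhb and 0.012 for Mpc1.

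Pdk4 had the widest spread in trained mice. It was at 815, 420.0, 305.0 and 399.9 CPM in EX and at 1309, 1117 and 381 CPM in CREX mice. CREX3 lay within the EX libraries, and the difference of 0.94 ± 0.50 did not pass (adjusted p = 0.24).

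These SkM groups also differed in slow fibre RNA, which Myh7, the slow myosin heavy chain, marks. The slow fibre score was 4.55, 7.10, 7.89 and 6.48 in EX and 6.08, 3.33 and 1.94 in CREX mice, with Myh7 at 14.4 to 677 CPM in EX and 0.121 to 108 CPM in CREX mice. None of the 7 slow fibre markers passed the test between the groups, and their median log2 fold change was -2.47. Without EX1, CREX2 and CREX3, the 3 libraries with a score below 5, the differences of Pdk1 (-0.16), Pdp2 (-0.29), Pdha1 (-0.12) and Pdhb (-0.10) shrank and Mpc2 missed the threshold (-0.42, adjusted p = 0.14), while Pdk4 passed (1.83, adjusted p = 1.6e-06). That fit has 1 CREX library and assumes that it varies as the EX libraries do. With the slow fibre score as a covariate Mpc2 was at -0.60 with an adjusted p of 0.14.

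**Figure D3:**
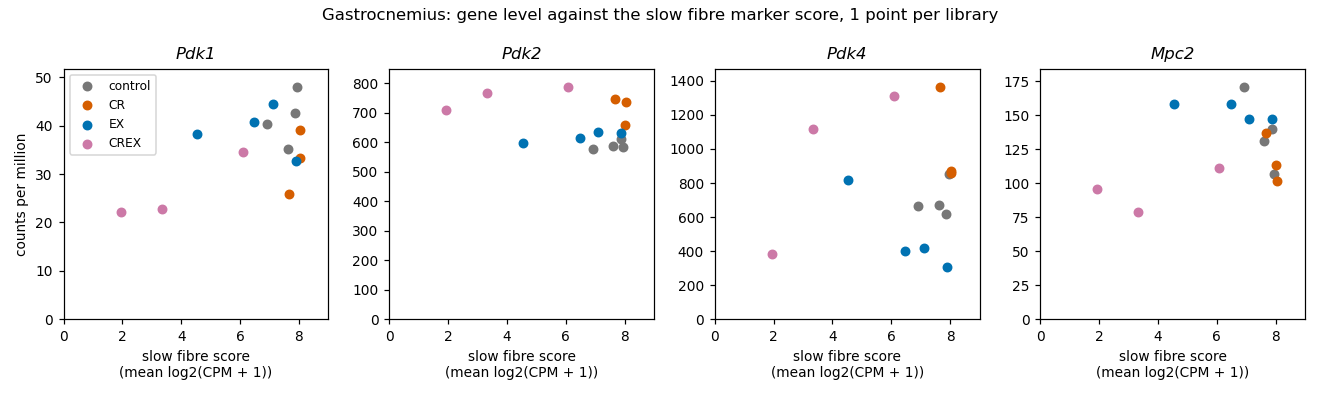
Level (CPM) of Pdk1, Pdk2, Pdk4 and Mpc2 in the 14 SkM libraries against the slow fibre marker score (mean log2(CPM + 1) of 7 genes), coloured by group. CREX2 and CREX3, at scores of 3.33 and 1.94, hold the lowest Pdk1 (22.7 and 22.2 CPM), whereas Pdk2 is at 659 CPM or more in all restricted libraries whatever their score.

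**Figure D4:**
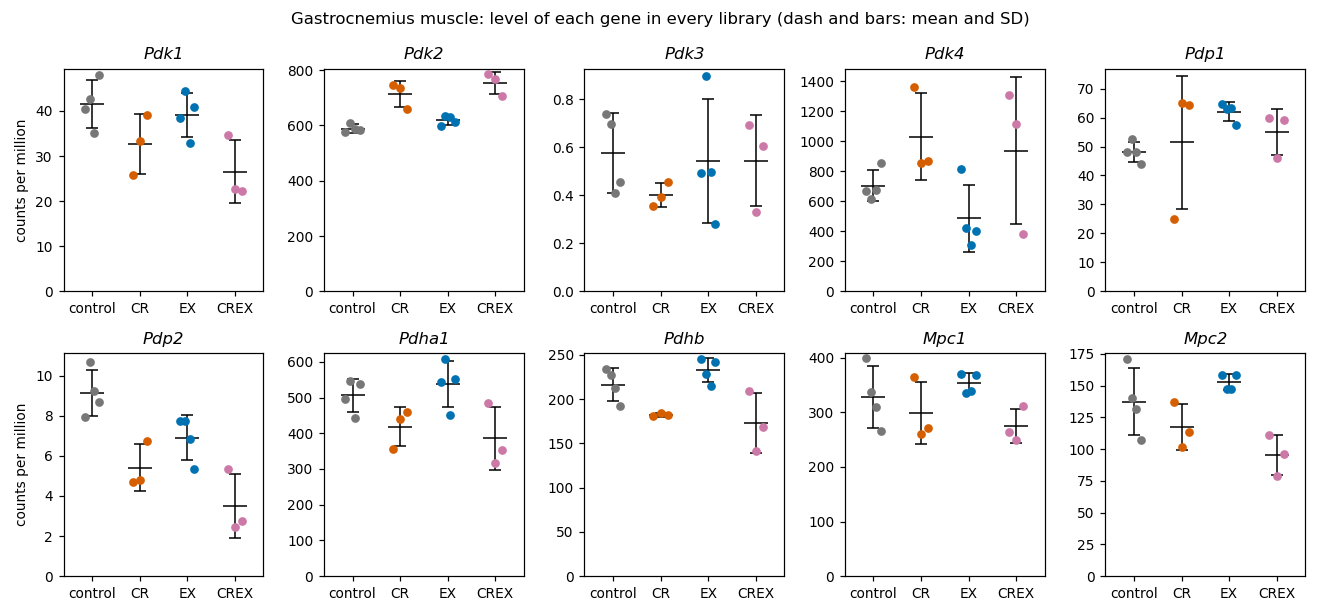
Level of each of the 10 genes in the 14 SkM libraries (CPM on a linear axis from 0), with the mean and SD of each group. For Pdk2 the 6 restricted libraries (659 to 786 CPM) sit above the 8 freely fed ones (577 to 634 CPM), and Pdk4 shows the widest scatter.

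Pooling both activity levels brought 7 of the 10 genes past the test in SkM, 2 up and 5 down (16.6% of all genes rose, 16.9% fell and 13.9% were DEGs). The genes that rose were the kinases Pdk2 (0.28 ± 0.07, adjusted p = 0.0045) and Pdk4 (0.75 ± 0.27, adjusted p = 0.043). The genes that fell were Pdk1 (-0.45 ± 0.12, adjusted p = 0.0100), Pdp2 (-0.86 ± 0.16, adjusted p = 0.00095), Pdha1 (-0.38 ± 0.11, adjusted p = 0.015), Pdhb (-0.34 ± 0.09, adjusted p = 0.0087) and Mpc2 (-0.45 ± 0.12, adjusted p = 0.0095). Pdk4 and Pdp2 were DEGs. With the slow fibre score as a covariate Pdk4 (adjusted p = 0.081) and Pdha1 (-0.30, adjusted p = 0.051) missed the threshold, and with no filter on low counts Pdk4 did (adjusted p = 0.10). Pdk2 was the 1 member whose 6 restricted libraries all lay above the 8 freely fed ones, as 10.7% of all genes did in either direction. The median over the 10 genes was -0.29.

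These SkM values moved with other RNA as well. Without the 3 libraries of low slow fibre score, Pdk2, Pdk4 and Pdp2 passed, while Pdk1 (-0.30, adjusted p = 0.097), Pdha1 (-0.24, adjusted p = 0.14), Pdhb (-0.21, adjusted p = 0.078) and Mpc2 (-0.29, adjusted p = 0.11) did not. The 10 muscle fibre markers as a list stood higher in restricted mice (5 of 10 rose in the pooled fit, none fell), all 5 hepatocyte markers rose, and all 4 endothelial and 2 of 4 fibroblast markers fell. Summed hepatocyte marker RNA was 38.3 to 244 CPM in CR mice, 0.344 to 49.6 CPM in CREX mice and 5.79 CPM or less in freely fed mice, with none of the 5 genes at 0 in all libraries of a group. Their part in the values of the 10 genes was not tested.

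**Figure D5:**
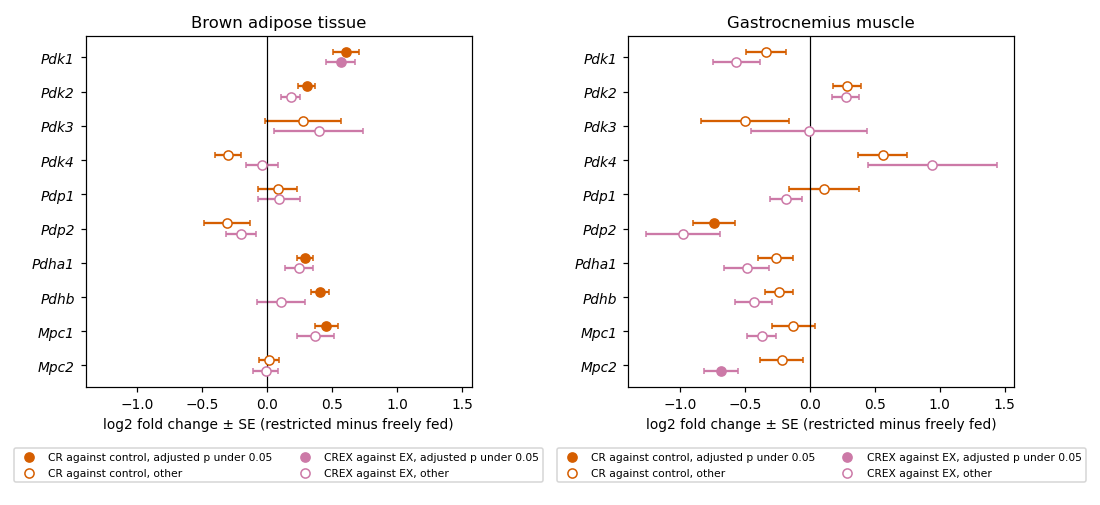
Log2 fold change (± SE, edgeR) of the 10 genes in BAT and SkM, for restriction in sedentary mice (CR against control) and in trained mice (CREX against EX), with filled points at adjusted p under 0.05. Pdk1 is above 0 in BAT (0.60 and 0.57) and below 0 in SkM (-0.33 and -0.57), and Pdk2 is above 0 in all 4 comparisons (0.18 to 0.30).

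The response to restriction differed between the tissues for some genes when that difference was tested itself, as SkM minus BAT. In sedentary mice 3 of 10 genes passed, 1 upwards (3.65% of all genes) and 2 downwards (3.93%). Pdk1 differed by -0.95 ± 0.20 (adjusted p = 0.0088) and Pdhb by -0.65 ± 0.15 (adjusted p = 0.013), since both rose in BAT and were lower in SkM. Pdk4 differed by 0.85 ± 0.24 (adjusted p = 0.042) in the opposite sense, and this call was lost in 10 of the 14 fits that left out 1 library, with values of 0.60 to 0.97. Pdk2 gave nearly the same response in both tissues (-0.03 ± 0.14, adjusted p = 0.94), a difference whose SE leaves room for modest effects.

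In trained mice 3 of 10 genes passed, all downwards (3.03% of all genes, with 2.55% upwards), and they were Pdk1 (-1.14 ± 0.22, adjusted p = 0.011), Mpc1 (-0.75 ± 0.20, adjusted p = 0.042) and Mpc2 (-0.68 ± 0.17, adjusted p = 0.031). Pdk1 passed in all 15 fits that left out 1 library. None of these fits left out CREX2 and CREX3 of SkM, the libraries with the lowest slow fibre scores, together. The tissue difference was not fitted with a muscle or slow fibre score, or without all muscle-rich BAT libraries. Mpc1 lost its call in 13 and Mpc2 in 9 of them, and without CREX1 of SkM 5 members passed. Pdk1 was the 1 gene of the set that passed this test at both activity levels. The labels do not say whether BAT and SkM came from the same mice, and these fits treat all libraries as separate.

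Training by itself gave no call on the 10 genes in edgeR. In BAT, EX against control had 0 genes past the adjusted threshold in edgeR (0% of 13407 genes, with 972 at an unadjusted p under 0.05, 2 of them members). DESeq2 passed 71 genes there, 1 of them a member. Pdk4 was the member with the smallest p: its EX libraries (1127, 955, 1004 and 1007 CPM) were all below the control libraries (1221, 1483 and 1586 CPM), where 8.15% of all genes did not overlap, a difference of -0.48 ± 0.10 with an adjusted p of 0.34 in edgeR and of 0.0045 in DESeq2. Pdp1 had the other value at p under 0.05 (0.44 ± 0.17, adjusted p = 0.64), with EX libraries at 6.25, 6.13, 6.09 and 4.21 CPM. EX4, the library at 4.21 CPM, had the lowest muscle score of the EX libraries (0.654), and control SkM held Pdp1 at 43.8 to 52.5 CPM. Muscle RNA's part in this difference was not tested beyond fits with the muscle score as a covariate or without the muscle-rich libraries.

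In SkM of EX mice neither phosphatase gene passed in edgeR, though the EX and control libraries were apart for both, unlike in BAT. All 4 EX libraries held more Pdp1 (64.7, 63.1, 63.2 and 57.4 CPM) than the control libraries (up to 52.5 CPM), and 4.2% of all genes had groups that did not overlap. The difference in Pdp1 was 0.37 ± 0.08, with an adjusted p of 0.15 in edgeR and of 0.0060 in DESeq2. For Pdp2 all 4 EX libraries (5.35 to 7.73 CPM) were below the control libraries (7.92 to 10.7 CPM) with an adjusted p of 0.49 (-0.39 ± 0.14). In this comparison 0.093% of all genes passed in edgeR, and 2 members had an unadjusted p under 0.05. Pdk4 was at 305 to 815 CPM in EX and 617 to 852 CPM in control mice (-0.53 ± 0.28, adjusted p = 0.81).

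Added to restriction, training again gave no call on the 10 genes. CREX against CR passed for 1 gene of all in BAT (0.00763%), which is not a member, and for 0 in SkM (0% of 13068 genes, with 477 at an unadjusted p under 0.05). DESeq2 passed 66 genes in BAT and 36 in SkM, none of them a member. In the fits over both diets, 0% of genes in BAT and 0.0294% in SkM passed for training. In BAT 1506 genes had an unadjusted p under 0.05 and DESeq2 passed 150. There Pdp1 (0.45 ± 0.11, adjusted p = 0.19) and Pdk4 (-0.34 ± 0.09, adjusted p = 0.24) had the smallest p of the members in BAT, with DESeq2 adjusted p of 0.029 and 0.036. Pdp1 in BAT was highest in CREX3 (7.36 CPM), the library with the highest muscle score. Muscle RNA's part in its level was not tested beyond fits with the muscle score as a covariate or without the muscle-rich libraries.

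The interaction of restriction and training passed for 0% of genes in either tissue (800 genes in BAT and 669 in SkM at an unadjusted p under 0.05, none of them a member). DESeq2 passed 4 genes in BAT and 1 in SkM, again no member. The smallest adjusted p among the members was 0.90 in BAT and 0.94 in SkM. The largest interaction values were -0.30 ± 0.22 for Pdhb in BAT and -0.46 ± 0.22 for Mpc2 in SkM among genes other than Pdk3, so effects of that size were not resolved at this number of mice.

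Other genes around pyruvate were read from lists of known function, and counts over both activity levels stand against the 15.8% of all genes that rose and 17.5% that fell in BAT and the 16.6% and 16.9% in SkM. Of the 4 genes that complete the complex (Dlat, Dld, Pdhx and the phosphatase regulator Pdpr), all 4 rose in BAT over both activity levels (median 0.23, Pdhx at 0.30 ± 0.06), and 3 of 4 fell in SkM with a median of -0.32. Dlat, the E2 core enzyme, rose in BAT of CR mice (0.38 ± 0.06, adjusted p = 0.0019) and fell in SkM of CR (-0.48 ± 0.13, adjusted p = 0.035) and CREX mice (-0.68 ± 0.20, adjusted p = 0.048). Lipoate and thiamine supply, which makes the cofactors of the complex, had 1 rise and 2 falls among 6 genes tested in BAT and 2 falls in SkM, counts too small to set apart from those shares. Among 7 genes of the sister 2-oxoacid dehydrogenases 1 rose and 1 fell in BAT, near the shares over all genes, and 3 fell in SkM. Bckdha, of the branched-chain complex, rose in BAT (0.17 ± 0.05) and fell in SkM (-0.40 ± 0.08).

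Other routes of pyruvate and lactate had a median near that of the 10 genes in BAT (0.26 and 0.24). Over both activity levels, 7 of 12 such genes rose and 1 fell in BAT, with Me1, cytosolic malic enzyme, at 1.19 ± 0.26, the alanine transaminase Gpt2 at 0.63 ± 0.18 and the monocarboxylate carrier Slc16a1 at -1.01 ± 0.18. In SkM 2 rose and 1 fell, counts too small to set apart from the shares over all genes. Gpt2 rose there by 1.59 ± 0.11, and Ldhb stood at -1.11 ± 0.38. Of 6 genes for glucose uptake and its first steps, 2 rose in BAT, the insulin-responsive glucose carrier Slc2a4 among them (0.39 ± 0.09), and 1 fell in SkM, the phosphofructokinase Pfkm (-0.23 ± 0.08). With 6 genes these counts are also too small to set apart from those shares. The medians of the pyruvate and glucose lists were 0.26 and 0.11 in BAT and 0.12 and -0.07 in SkM, against -0.0014 and 0.0059 over all genes in the 2 fits.

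Fatty acid oxidation and PPAR target genes, the group with which Pdk4 is usually listed, did not move as 1 block. Of 18 genes, 4 rose and 3 fell in BAT over both activity levels, and 3 rose and 12 fell in SkM with a median of -0.60. The BAT counts and the rises in SkM are near the shares over all genes. In BAT the acyl-CoA thioesterase gene Acot2 rose (0.70 ± 0.10) and the fatty acid binding protein gene Fabp3 fell (-1.19 ± 0.16). In SkM the uncoupling protein gene Ucp3 rose (1.01 ± 0.13) while Cpt2 (-0.74 ± 0.10) and Hadhb (-0.82 ± 0.11), enzymes of fatty acid import and oxidation, fell.

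Genes of factors known to act on Pdk4 rose in 4 of 13 and fell in 2 of 13 cases in BAT, and rose in 6 and fell in 2 in SkM, the falls being near the shares over all genes in both tissues. Foxo3 rose in both tissues (0.69 ± 0.13 in BAT and 1.14 ± 0.09 in SkM), Foxo1 rose by 2.45 ± 0.15 in SkM, and Ppargc1b fell there by 1.59 on the log2 scale (-1.59 ± 0.16). In BAT, Ppara (-0.77 ± 0.21) and Ppargc1a (-0.80 ± 0.29) fell. Targets of FoxO and fasting rose in 3 of 8 cases in BAT and 4 of 8 in SkM with no falls, with Sesn1 in both (0.97 ± 0.17 and 0.92 ± 0.11). Glucocorticoid targets had medians of 1.43 in BAT (5 of 9 rose, 1 fell) and 1.66 in SkM (7 of 9 rose), and Fkbp5, the one with the smallest p in both, stood at 3.71 ± 0.31 and 3.03 ± 0.16. These lists share libraries with the 10 genes, so their changes are given side by side and no link is drawn.

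The genes whose pattern came closest to a member were found by Pearson's r of log2 CPM over the libraries of a tissue, which share their groups and depth and are a description only. Over the 15 BAT libraries, Pdk1 was closest to Ntsr2 (r = 0.96), Ttc25 (0.96) and the fatty acid elongase Elovl6 (0.96), Pdha1 to Ttc25 (0.96), 2310069B03Rik (0.95) and the fatty acid synthase Fasn (0.95), Pdhb to Pkm (0.97), Eno1 (0.96) and Dlat (0.95), and Mpc1 to Mapk8ip1 (0.98), Tecr (0.98) and Taldo1 (0.97). Pdk2 was closest to Ddt (0.93), LOC108168810 (0.92) and Epb41 (0.92). Pdp1, whose BAT level was set beside the muscle score above, was closest to Stac3 (0.89), Bves (0.88) and Sec14l5 (0.88). Pdk4 had weaker matches there, with Ampd2 (0.84), Med12l (0.82) and E230015B07Rik (0.82).

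Over the 14 SkM libraries, Mpc2 was closest to the respiratory chain genes Cox4i1 (r = 0.99), Ndufa9 (0.99) and Uqcrq (0.98), Pdhb to Slc25a11 (0.97), Mdh2 (0.97) and Thbs4 (0.97), and Pdha1 to Nkx6-3 (0.97), Dlat (0.96) and Pdhx (0.96). Pdk1 came closest to Ppip5k1 (0.97), Wnt16 (0.96) and Mfn1 (0.96), Pdp2 to Galnt10 (0.97), Arhgap28 (0.96) and Cat (0.96), and Pdk2 to Tchp (0.94), LOC102641980 (0.94) and Stxbp4 (0.94). Pdk4 again matched less closely, with Rc3h1 (0.87), Dpep1 (0.83) and Strn4 (0.81). Among the members themselves, Pdk1 and Pdha1 ran together in both tissues (r = 0.91 in BAT and 0.94 in SkM), whereas Pdk1 and Pdk2 had r = 0.66 in BAT and -0.71 in SkM.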

How the data were processed

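Gene expression was read from 15 BAT and 14 SkM libraries, 1 for each mouse and tissue, of the control, CR, EX and CREX groups. After trimming, the authors mapped the reads to mm10 with STAR 2.7.10a and quantified genes with RSEM (1.2.28 in the submitters' processing notes), and the deposited values are expected counts per gene symbol without normalization. The annotation they counted on is not given in the sources used here. Of 24770 symbols, 27 read as dates and 2 occurred more than once, and none of these is named. Of the deposited values, 6.11% were not whole, and all were rounded to whole counts.

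Each comparison was fitted on its own groups with edgeR 4.0.16 (R 4.3.3): TMM scaling, filterByExpr, and the robust quasi-likelihood test with Benjamini-Hochberg adjustment over all genes tested. A gene passed at an adjusted p under 0.05 and was a DEG if it also changed more than 1.5-fold, the thresholds of the study. For the interaction and the tissue difference no fold limit was set. The SE is the size of the log2 fold change divided by the square root of F. CPM were scaled with the TMM factors of a tissue. Marker scores are means of log2(CPM + 1), and lengths come from GENCODE M21. Counts of 3 set the floor, which covers counting error only. DESeq2 1.42.0, RLE scaling, other filters, 1 fit on all groups, the replicate block, marker scores as covariates and leaving out each library were alternatives.

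The members and gene lists were chosen with earlier results of these data known. Named are all members, and from each list the 3 DEGs with the smallest p in a restriction comparison or, where none was called, the 1 gene with the smallest p, the 3 genes most like Pdk4 and each member that passed in a restriction comparison, and the most abundant markers, and not every gene that meets this rule is reported here. The genes most like Pdp1 in BAT are named outside this rule. Tests were checked on simulated data before use. The labels number the libraries and name no shared cage, litter or day, so p-values measure the spread between these samples.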

Additional observations from a re-analysis of the deposited data

Results flagged for a closer look

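Restriction acted differently on some genes in BAT and SkM, tested as the SkM response minus the BAT response in 1 edgeR fit over both tissues. In sedentary mice Pdk1 (-0.95), Pdk4 (0.85) and Pdhb (-0.65) passed, and in trained mice Pdk1 (-1.14), Mpc1 (-0.75) and Mpc2 (-0.68), all on the log2 scale. With 1 library left out, Pdk4 lost its call in 10 of 14 fits, Mpc1 in 13 of 15 and Mpc2 in 9 of 15. Pdk1 and Pdhb kept theirs in every such fit. The tissue difference was not fitted with a marker score, or without CREX2 and CREX3 of SkM together. Within BAT, 4 group values stood far from the rest of their group by Dixon's test at 95%, namely the highest Pdk3 of the EX mice (1.27 CPM, EX3), the lowest Pdp1 of the EX mice (4.21 CPM, EX4), the highest Pdhb of the CREX mice (979 CPM, CREX2) and the highest Mpc2 of the EX mice (356 CPM, EX1). EX4 also had the lowest muscle score of the EX mice in BAT (0.654). Of 50 groups tested 4 were so marked, and chance marks about 1 in 20.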

How the results depend on the processing

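Counts of DEGs among the 10 genes depended on the fold limit and on single libraries. For CR against control in BAT there were 5 genes with no fold limit against 1 (0 to 1 when 1 library was left out), and for CREX against EX in BAT 1 with no fold limit or with the muscle score as covariate against 0 (0 to 1). Over both activity levels in BAT, there were 4 with no fold limit and 1 with DESeq2, RLE scaling, no filter or the muscle score, against 0. In SkM, CR against control gave 2 with the replicate block against 1 (0 to 1 without 1 library), and CREX against EX gave 2 with DESeq2, the replicate block or 1 fit on all groups and 0 with the slow fibre score, against 1 (0 to 5). Over both activity levels in SkM there were 7 with no fold limit and 1 with no filter or the slow fibre score, against 2. The tissue difference gave 5 with DESeq2 against 3 in sedentary mice (2 to 4 without 1 library) and 1 to 5 against 3 in trained mice. Values near 0 changed sign. Those of Pdp1 were -0.042 with the replicate block and -0.038 with the slow fibre score for CR in SkM, 0.014 and 0.054 with the slow fibre score and without its 3 low libraries over both activity levels, and -0.015, -0.0085 and -0.10 with DESeq2, RLE scaling and the replicate block for the tissue difference. Mpc1 for CR in SkM was 0.046 with the slow fibre score, Pdhb for CREX in BAT was -0.17 without the muscle-rich libraries, and Mpc2 in BAT was 0.0025 with no filter for CREX and -0.0064 and -0.021 with at least 10 counts and without the muscle-rich libraries over both activity levels. Leaving out 1 library gave ranges across 0 for Mpc2 (-0.045 to 0.10) and Pdp1 (-0.0013 to 0.17) in CR against control in BAT, for Mpc2 (-0.059 to 0.090), Pdhb (-0.027 to 0.28), Pdk4 (-0.13 to 0.067) and Pdp1 (-0.027 to 0.16) in CREX against EX in BAT, for Pdp1 in SkM of CR mice (-0.10 to 0.43), and for Pdk2 (-0.078 to 0.0028) and Pdp1 (-0.21 to 0.35) in the tissue difference of sedentary mice. The causes were not tested. Libraries with the same number did not pair (correlation of their deviations -0.46 to 0.48 over the comparisons, and no comparison had all its pairs above 0.1). With the replicate block the adjusted p of Pdha1 was 0.069 for CR in BAT and 0.053 over both activity levels in SkM, those of Pdk4 and Mpc1 in the tissue difference of sedentary and trained mice were 0.071 and 0.061, and Pdk4 for CR in SkM (0.015) and Pdp2 for CREX in SkM (0.049) passed. The fits without muscle-rich or slow-poor libraries were chosen after seeing the data, and leaving out single libraries was not run for the fits over both levels or the interaction. With 3 or 4 mice a group, differences of the size of the SE given are not resolved.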
